A study of Homo sapiens with 8 samples.

Results

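The 9 genes described here, of 58206 rows in the table, encode parts of the MHC class I antigen presentation pathway. They were taken by symbol: the class I heavy chains HLA-B, HLA-C, HLA-E and HLA-F, the light chain B2M, the peptide transporter subunits TAP1 and TAP2, the loading chaperone TAPBP (tapasin) and the regulator NLRC5. Their mRNA was measured by RNA sequencing in Alexander1 cells, an established epithelial line from a human hepatocellular carcinoma. According to the labels the line has lost the part of the Wnt pathway scaffold Axin1 that binds the kinase GSK3, so that its Wnt pathway is always on, and a derivative received Axin1 by retroviral transfer with hygromycin selection of clones. There were 4 libraries of the parental line (genotype wt, Axin1 -) and 4 of the derivative (genotype Axin1 +), grown in the same serum-containing medium. How many clones the derivative libraries came from, and whether replicates were separate cultures, is not given in the sources used here, so p-values measure only the spread between these libraries, which may be technical. In bulk RNA, fewer cells expressing a gene and less RNA per cell cannot be told apart.

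Class I molecules display peptides from inside the cell to cytotoxic T cells. Proteasomes cut cytosolic proteins, the TAP transporter carries the peptides into the endoplasmic reticulum, tapasin and other chaperones help to load them, and the loaded heavy chain leaves for the surface bound to beta-2 microglobulin, the product of B2M. NLRC5, induced by interferon gamma, acts on a shared promoter module of class I genes (the X and Y boxes), and loss of class I is a known route by which tumours, liver tumours among them, become less visible to T cells.

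AXIN1, the gene the derivative was made to change, stood at 55.3, 52.8, 47.4 and 54.2 CPM (library-size-scaled counts) in parental replicates 1 to 4 and at 47.6, 48.0, 48.2 and 37.7 CPM in the libraries labelled as Axin1-restored. It did not pass the test (log2 fold change -0.21, SE 0.12, adjusted p = 0.267). A count over the whole gene does not separate the transferred copy from the cell's own, and no added level was seen, so the derivative libraries are called restored-labelled throughout. Libraries held between 11232951 and 26400782 counts, and 14289 genes passed the filter on low counts and were tested. Parental replicate 1 lay apart from the other parental libraries on the second principal component of log2 CPM (61.5 against -30.3 to -9.60), and restored-labelled replicate 1 lay closer to the parental libraries than the other 3 on the first (22.2 against 48.7 to 56.8). The identity of the line was checked on 9 hepatocyte and hepatoma markers, all tested, whose summed level was 23952 to 28061 CPM in the parental and 17120 to 20693 CPM in the restored-labelled libraries. SERPINA1 made up most of that sum and was called lower (14811 to 17644 against 8943 to 11616 CPM, log2 fold change -0.64, adjusted p = 0.0164). TTR was called higher although its values overlapped (1.42 to 5.35 against 4.81 to 21.2 CPM, log2 fold change 1.76, adjusted p = 0.0259). AFP did not pass (-1.14, adjusted p = 0.0538), and ALB was at 13.8 CPM in restored-labelled replicate 1 against 445 to 681 CPM in the other 3. Of 8 leukocyte markers, CD3E and CSF1R had no count in any library and PTPRC had at most 0.178 CPM. The summed level of the 8 was 422 to 949 CPM in the parental and 673 to 921 CPM in the restored-labelled libraries, of which LYZ made up between 421 and 949 CPM. The 7 endothelial and fibroblast markers summed to 7.24 to 9.44 CPM and 38.5 to 60.2 CPM, with PECAM1 called higher (5.18 CPM ± 0.951 against 48.2 CPM ± 10.3, SD, n = 4) and PDGFRB lower (1.69 CPM ± 0.639 against 0.221 CPM ± 0.162, adjusted p = 0.00454). PDGFRB passed the filter through the parental libraries, so its fold change and call are not independent of that selection. VWF and CDH5 stayed at or under 0.248 CPM in every library.

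The promoters of the genes called higher below that have an entry, with that of TAP1 for contrast, are shown because these genes have known regulatory elements in common and moved in the same direction. RefSeq promoters (GRCh38.p14, 250 bases before to 50 after the start) were found for 7 of the 9 genes, HLA-E and NLRC5 being the others. They are reference sequences, and the alleles of this line may differ. Capitals mark matches, on either strand and merged where they overlap, to the interferon-stimulated response element core AAANNGAAA, its variant GAAGTGAAA, the X2 box core TGACG, the Y box core ATTGG and the kappaB-like GGNNTTNCC. The motifs were chosen with these sequences in view.
HLA-B, chr6:31357130-31357429, minus strand: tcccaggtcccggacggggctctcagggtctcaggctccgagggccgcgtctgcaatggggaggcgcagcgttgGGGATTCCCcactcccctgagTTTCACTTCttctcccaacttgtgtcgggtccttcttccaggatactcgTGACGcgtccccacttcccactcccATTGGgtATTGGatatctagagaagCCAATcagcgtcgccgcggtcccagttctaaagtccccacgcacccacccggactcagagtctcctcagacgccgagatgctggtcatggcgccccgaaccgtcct
HLA-C, chr6:31272043-31272342, minus strand: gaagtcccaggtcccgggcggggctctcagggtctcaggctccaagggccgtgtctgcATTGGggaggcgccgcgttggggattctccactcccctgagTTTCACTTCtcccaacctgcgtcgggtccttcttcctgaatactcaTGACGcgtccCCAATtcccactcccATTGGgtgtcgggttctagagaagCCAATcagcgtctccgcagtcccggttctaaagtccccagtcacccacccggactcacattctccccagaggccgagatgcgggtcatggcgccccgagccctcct
HLA-F, chr6:29723184-29723483, plus strand: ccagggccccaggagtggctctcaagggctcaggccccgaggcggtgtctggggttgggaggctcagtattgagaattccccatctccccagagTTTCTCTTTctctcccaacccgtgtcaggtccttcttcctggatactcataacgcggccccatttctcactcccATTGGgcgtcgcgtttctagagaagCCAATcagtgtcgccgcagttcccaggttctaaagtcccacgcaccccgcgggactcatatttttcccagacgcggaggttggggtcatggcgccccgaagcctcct
B2M, chr15:44711267-44711566, plus strand: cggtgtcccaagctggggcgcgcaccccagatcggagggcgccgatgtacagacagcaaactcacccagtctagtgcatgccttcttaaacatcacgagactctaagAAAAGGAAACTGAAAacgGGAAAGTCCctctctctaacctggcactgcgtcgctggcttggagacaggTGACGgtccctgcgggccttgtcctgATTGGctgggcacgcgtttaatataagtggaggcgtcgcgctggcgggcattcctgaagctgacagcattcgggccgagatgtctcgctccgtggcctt
TAPBP, chr6:33314029-33314328, minus strand: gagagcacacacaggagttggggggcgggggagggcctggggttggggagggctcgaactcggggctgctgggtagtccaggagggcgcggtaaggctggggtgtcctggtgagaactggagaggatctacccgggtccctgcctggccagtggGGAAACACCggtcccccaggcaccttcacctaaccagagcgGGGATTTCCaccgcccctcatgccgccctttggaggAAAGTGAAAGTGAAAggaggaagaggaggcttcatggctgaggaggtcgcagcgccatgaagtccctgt
TAP1, chr6:32853655-32853954, minus strand: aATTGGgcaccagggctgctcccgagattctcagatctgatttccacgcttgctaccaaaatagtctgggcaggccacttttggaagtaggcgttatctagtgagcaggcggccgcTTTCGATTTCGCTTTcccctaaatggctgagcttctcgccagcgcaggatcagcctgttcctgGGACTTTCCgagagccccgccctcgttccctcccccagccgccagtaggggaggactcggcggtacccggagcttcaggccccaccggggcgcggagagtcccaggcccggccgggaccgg
The core AAANNGAAA was present in the promoters of 5 genes (HLA-F, B2M, TAP1, TAP2 and TAPBP) and in 10.5% of all 35116 promoters of this length. HLA-B and HLA-C held GAAGTGAAA in its place, a variant chosen with these sequences in view and found in 0.51% of all promoters. Whether any motif is more frequent in these promoters than in all was not tested. TGACG was found in HLA-B, HLA-C, B2M and TAP2 (24.6% of all promoters), ATTGG in HLA-B, HLA-C, HLA-F, B2M and TAP1 (34.6%), and GGNNTTNCC in HLA-B, B2M, TAP1 and TAPBP (17.1%). HLA-B and B2M were the genes with matches to an interferon-type motif, both box cores and the kappaB-like motif together. A match describes the letters of the window and shows neither binding nor use, and TAP1, which carries 2 overlapping interferon-type matches, did not pass the test described next.

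The question put to the 9 genes was whether their mRNA level depended on the label. All 9 log2 fold changes were above 0, as were 50.2% of those over all genes. With edgeR's quasi-likelihood test and p-values adjusted over all 14289 genes (threshold 0.05), 6 rose in the restored-labelled libraries (HLA-B, HLA-C, HLA-F, B2M, TAPBP and NLRC5), 0 fell, and 3 did not pass (HLA-E, TAP1 and TAP2). Over all genes 10.4% were called higher and 8.77% lower, with 19.2% called in either direction. The values of the groups did not overlap, with the restored-labelled ones higher, in 7 of the 9 genes, against 12.7% of all genes (11.2% did not overlap with lower values, 23.9% in either direction). The median log2 fold change was 0.76 over the 9 genes and 0.00 over all genes tested. All 9 passed the filter on low counts, but NLRC5 did so through the restored-labelled libraries, since only 1 parental library reached the filter's 0.692 CPM. Without NLRC5, 5 of 8 were called, 6 of 8 did not overlap and the median was 0.67. With total counts in place of scaled totals the calls over all genes split into 1724 higher and 868 lower, against 1485 and 1253, and TAP1 passed as well. Without parental replicate 1, the library that stood apart, 8 of the 9 genes passed, TAP2 being the exception, and the same 8 did so without both replicates numbered 1. Without parental replicate 2 or restored-labelled replicate 4 only HLA-B, HLA-C, HLA-F and TAPBP passed.

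**Figure D1:**
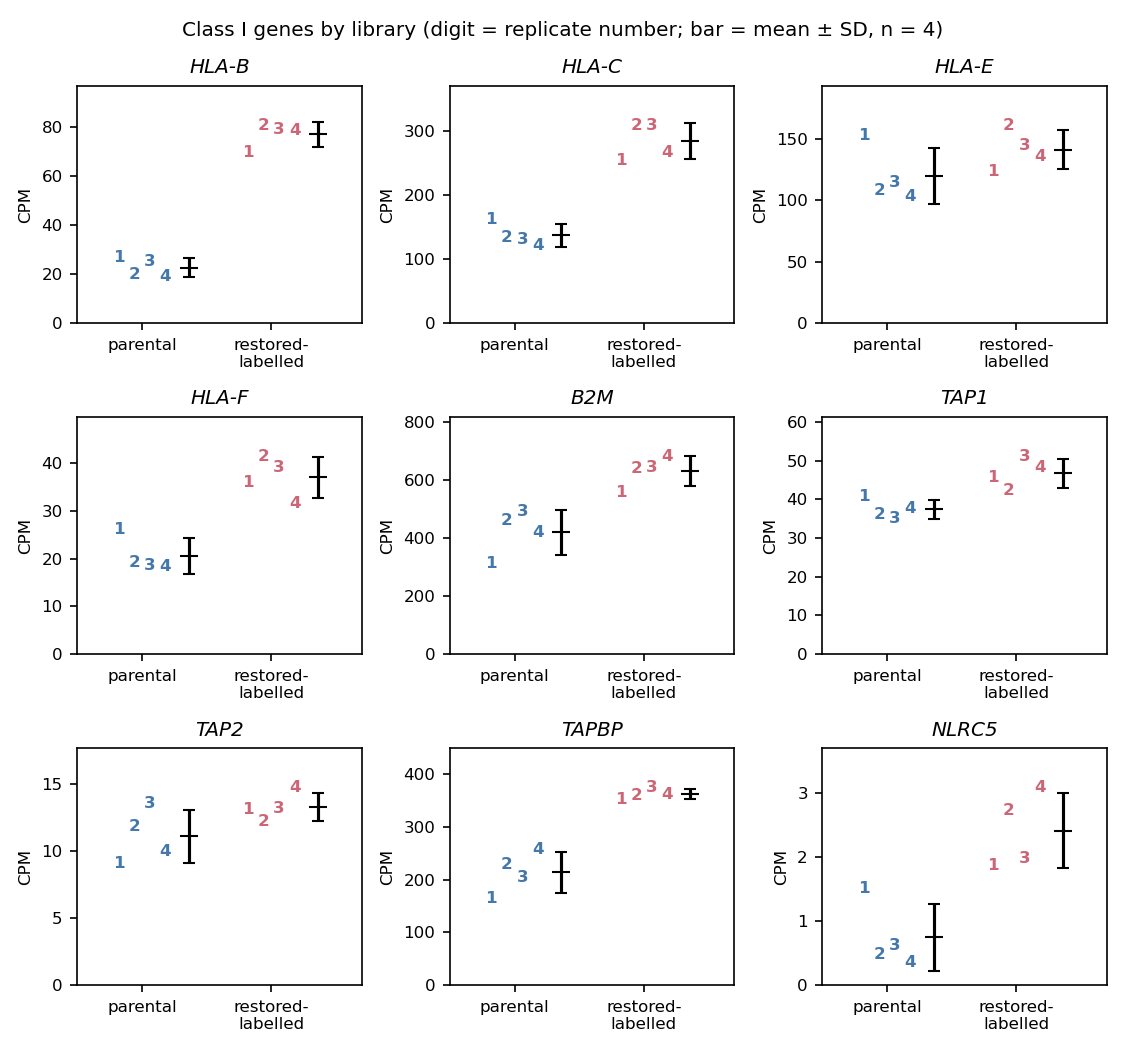
CPM of each of the 9 class I genes in the 4 parental (blue) and 4 restored-labelled (red) libraries, with digits giving the replicate number and bars the mean ± SD (n = 4). The groups are apart in 7 genes and overlap in HLA-E and TAP2, and parental replicate 1 is the highest parental library for HLA-E (153 CPM) and the lowest for B2M (313 CPM).

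HLA-B had the largest log2 fold change of the 9 as reported, with NLRC5 above it in 6 of 18 alternatives. HLA-B (ENSG00000234745, chromosome 6, 31269491 to 31357188, minus strand), a classical heavy chain that presents peptides to cytotoxic T cells, stood at 26.6, 19.7, 25.1 and 19.0 CPM in parental replicates 1 to 4 and at 69.5, 80.5, 79.0 and 78.7 CPM in restored-labelled replicates 1 to 4. Every restored-labelled library was above every parental one, and the lowest of them was replicate 1. HLA-B thus rose 3.41-fold between means of 22.6 CPM ± 3.83 and 76.9 CPM ± 5.01 (SD, n = 4 each). This is 1.77 on the log2 scale (SE 0.14, 95% confidence interval 1.45 to 2.08, adjusted p = 3.28e-05). Among all genes tested 1.97% had a larger log2 fold change.

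HLA-C (ENSG00000204525, chromosome 6, 31268749 to 31272130, minus strand), the classical heavy chain that also serves as the main ligand of killer-cell immunoglobulin-like receptors, measured 162, 134, 131 and 120 CPM in the parental and 254, 309, 308 and 267 CPM in the restored-labelled libraries. Its groups were apart, with parental replicate 1 the highest of its group and restored-labelled replicate 1 the lowest of its own. HLA-C rose 2.08-fold, a log2 fold change of 1.05 (SE 0.13, 95% confidence interval 0.76 to 1.35, adjusted p = 0.000571).

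HLA-F (ENSG00000204642, chromosome 6, 29722775 to 29738528, plus strand) is a non-classical heavy chain that can reach the surface without peptide and is seen by natural killer cells. Its values were 26.1, 19.1, 18.5 and 18.3 CPM in the parental and 35.9, 41.4, 39.1 and 31.6 CPM in the restored-labelled libraries. These did not overlap, and parental replicate 1 lay above the other 3 parental values, which were close together. HLA-F rose 1.80-fold, a log2 fold change of 0.85 (SE 0.16, 95% confidence interval 0.50 to 1.20, adjusted p = 0.00474).

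HLA-E (ENSG00000204592, chromosome 6, 30489467 to 30494205, plus strand) presents leader peptides of other class I chains to the inhibitory receptor NKG2A on natural killer cells. It stood at 153, 108, 114 and 103 CPM in the parental and at 123, 161, 145 and 135 CPM in the restored-labelled libraries. The groups overlapped because parental replicate 1 was higher than 3 of the 4 restored-labelled libraries. HLA-E, with a log2 fold change of 0.24 (SE 0.15, 95% confidence interval -0.09 to 0.57), did not pass the test (adjusted p = 0.284). It passed at 0.38 when parental replicate 1 was left out (adjusted p = 0.0438).

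The proportions of the 4 heavy chains are given as a description, with no test. Per kilobase of principal transcript, HLA-B made up 8.32% to 10.4% of the summed level of the 4 heavy chains in the parental and 15.3% to 17.2% in the restored-labelled libraries. The share of HLA-E was 27.1% to 29.7% in the parental and 16.8% to 18.2% in the restored-labelled ones. HLA-C was the largest share in every library, at 53.5% to 57.0% and 58.7% to 60.6%, and HLA-F held 7.22% to 8.08% and 6.53% to 7.86%. The summed counts of the 4 chains came to 299 CPM ± 46.9 and 539 CPM ± 50.3 (SD, n = 4 each), 1.80-fold higher in the restored-labelled libraries. If every shared read was counted within the 4 chains, the sum does not depend on how reads were divided among them. Of the 50-base windows of their principal transcripts, between 1.70% (HLA-F) and 6.79% (HLA-C) also occur in transcripts of another gene, 2.02% of those of HLA-C in HLA-B, whose annotated exons overlap on the same strand. How such reads were counted is not given in the sources used here, nor is how well reads from this line's own alleles align to the reference.

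**Figure D2:**
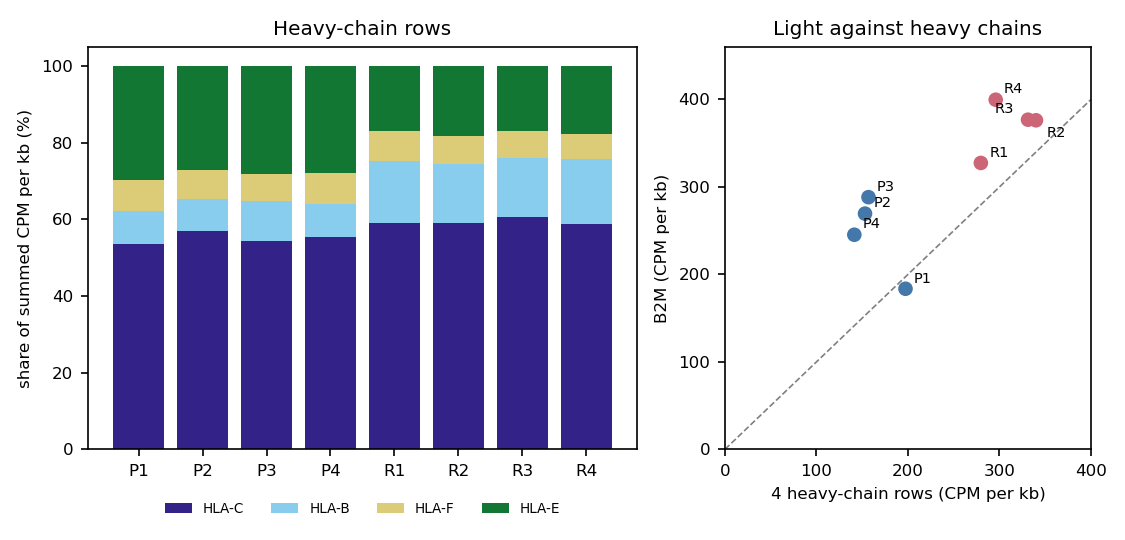
Left, the share of each heavy-chain gene in the summed CPM per kilobase of the 4, in percent, for parental (P1 to P4) and restored-labelled (R1 to R4) libraries. Right, B2M against the summed heavy chains, both in CPM per kilobase, with a dashed line of equality; the HLA-B share is at most 10.4% in the parental bars and at least 15.3% in the others, and P1 is the point below the line.

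B2M (ENSG00000166710, chromosome 15, 44711487 to 44718877, plus strand) encodes the light chain without which most class I heavy chains do not reach the surface. Its values were 313, 459, 492 and 418 CPM in the parental and 558, 641, 643 and 682 CPM in the restored-labelled libraries. The groups were apart, with a gap of 66.7 CPM between them and a range of 179 CPM among the parental values. B2M rose 1.50-fold between means of 421 CPM ± 77.7 and 631 CPM ± 51.9 (SD, n = 4 each), which is 0.59 on the log2 scale (SE 0.16, 95% confidence interval 0.24 to 0.93, adjusted p = 0.0246). The call was lost when parental replicate 2 or 4 or restored-labelled replicate 2, 3 or 4 was left out (adjusted p between 0.0512 and 0.0756), with log2 fold changes from 0.55 to 0.63, and it held without parental replicate 1 at 0.47. Per kilobase, B2M stood at 1.74 to 1.84 times the summed heavy chains in parental replicates 2 to 4 and at 0.930 in replicate 1, and at 1.11 to 1.35 in the restored-labelled libraries, where the heavy-chain sum was 1.92-fold higher and B2M 1.50-fold.

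Neither transporter subunit passed the test. TAP1 (ENSG00000168394, chromosome 6, 32845209 to 32853978, minus strand) and TAP2 (ENSG00000204267, chromosome 6, 32821833 to 32838780, minus strand) form the heterodimer that pumps peptides into the endoplasmic reticulum. TAP1 measured 40.7, 36.2, 35.1 and 37.7 CPM in the parental and 45.6, 42.2, 51.1 and 48.1 CPM in the restored-labelled libraries, values that did not overlap. Its log2 fold change of 0.32 (SE 0.12, 95% confidence interval 0.06 to 0.58) missed the threshold (adjusted p = 0.0793) and passed it with the DESeq2 Wald test (0.31, adjusted p = 0.0444), with total counts only (0.41, adjusted p = 0.0442) and when parental replicate 1 was left out (0.36, adjusted p = 0.0498).

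TAP2 was at 9.08, 11.8, 13.5 and 9.95 CPM in the parental and 13.1, 12.2, 13.2 and 14.8 CPM in the restored-labelled libraries, with overlap. The difference of 0.26 on the log2 scale (SE 0.17, 95% confidence interval -0.11 to 0.63, adjusted p = 0.303) did not pass, and its interval includes the value of B2M. Of the 50-base windows of TAP2, 80.2% also occur in AL669918.1, an overlapping annotated gene on the same strand whose row held no count in any library, so the level of TAP2 may cover only part of its reads. Per kilobase TAP1 stood at 2.19 to 3.78 times TAP2 in the parental and 2.75 to 3.28 times in the restored-labelled libraries.

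TAPBP (ENSG00000231925, chromosome 6, 33299694 to 33314387, minus strand) encodes tapasin, which bridges TAP and the empty heavy chain and edits the bound peptide. Its values were 165, 229, 204 and 256 CPM in the parental and 352, 360, 375 and 360 CPM in the restored-labelled libraries. The restored-labelled values lay close together and far above the parental ones, of which replicate 1 was the lowest. TAPBP rose 1.69-fold, a log2 fold change of 0.76 (SE 0.14, 95% confidence interval 0.44 to 1.08, adjusted p = 0.00527), a call kept in all 18 alternatives, as were those of HLA-B, HLA-C and HLA-F.

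NLRC5 (ENSG00000140853, chromosome 16, 56989485 to 57083531, plus strand), the transactivator of class I genes, was expressed at a low level. It had 17, 7, 7 and 5 counts in parental replicates 1 to 4 and 52, 33, 40 and 79 counts in the restored-labelled libraries, which is 1.51, 0.474, 0.624 and 0.358 CPM against 1.87, 2.72, 1.97 and 3.08 CPM. The groups did not overlap, but parental replicate 1 lay close below restored-labelled replicate 1. NLRC5 rose 3.30-fold, a log2 fold change of 1.72 (SE 0.43, 95% confidence interval 0.77 to 2.67, adjusted p = 0.0194). It was tested only because of its level in the restored-labelled libraries, since 1 parental library reached the filter's 0.692 CPM. Its fold change and call are therefore not independent of that selection. Its size was 1.48 with parental replicate 4 left out and 2.31 with parental replicate 1 left out, and the call was lost without parental replicate 2, parental replicate 3 or restored-labelled replicate 4 (adjusted p between 0.0528 and 0.0684). CIITA, the related transactivator of class II genes, had at most 0.312 CPM in any library and was not tested.

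**Figure D3:**
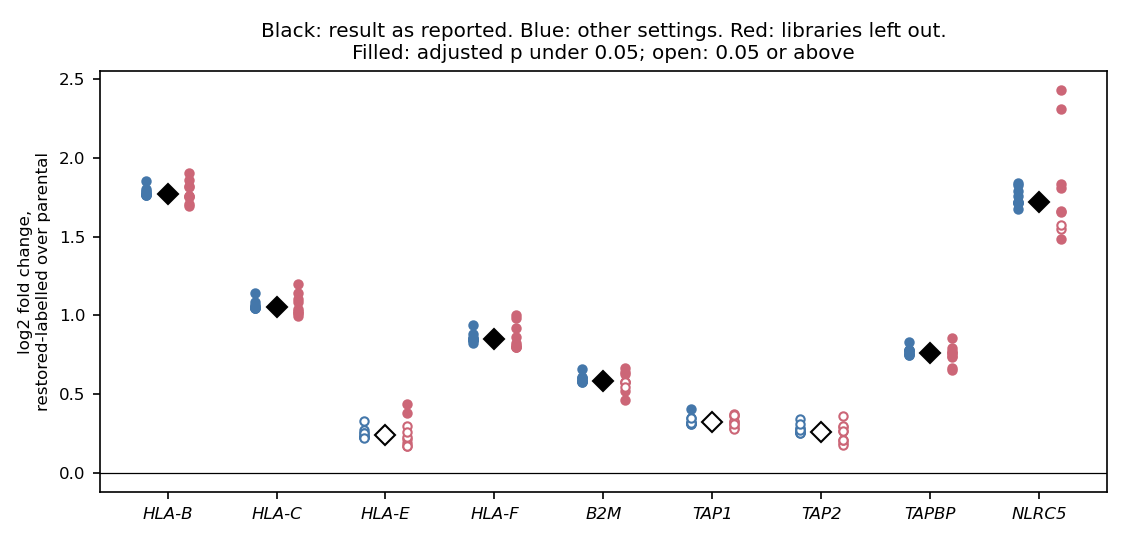
Log2 fold change of each class I gene, restored-labelled over parental, as reported (black), under other settings (blue) and with libraries left out (red), filled where the adjusted p is under 0.05. HLA-B, HLA-C, HLA-F and TAPBP are filled throughout, B2M and NLRC5 lose the call in 5 and 3 alternatives, and TAP2 is open in all.

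Per kilobase of principal transcript the order of mean levels in the parental libraries was B2M (247 CPM per kb ± 45.6, SD, n = 4), TAPBP (113 ± 20.6), HLA-C (89.1 ± 11.6), HLA-E (45.9 ± 8.70), HLA-B (14.6 ± 2.48), TAP1 (12.6 ± 0.816), HLA-F (12.5 ± 2.28), TAP2 (4.45 ± 0.799) and NLRC5 (0.109 ± 0.0770). HLA-B, TAP1 and HLA-F lay within their spread of each other. In the restored-labelled libraries HLA-B (49.7 CPM per kb ± 3.24) stood beside HLA-E (54.2 ± 6.03), and HLA-C (185 ± 18.4) beside TAPBP (192 ± 5.00).

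Of the 9 genes, 7 lie in the MHC region of chromosome 6, so the neighbouring genes were examined for a shift of the region. Among the 139 other tested genes between 28 and 34 Mb the median log2 fold change was 0.03, with 7.19% called higher and 4.32% lower. Over the whole of chromosome 6 it was 0.18, with 12.5% called higher and 5.07% lower. The 39 other genes nearest to HLA-B had a median of -0.07, the 40 nearest to HLA-F 0.23 and the 39 nearest to TAPBP 0.01. Of those nearest to HLA-F, 12.5% were called higher and 2.5% lower. Around B2M on chromosome 15 the median of 40 neighbours was 0.26, with 17.5% called higher and 2.5% lower. Their quartiles were -0.17 and 0.62, and the 0.59 of B2M lies between them. Around NLRC5 on chromosome 16 the median was 0.03, with 20% called higher and 15% lower. The part of the neighbourhood in the result of each gene was not tested.

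**Figure D4:**
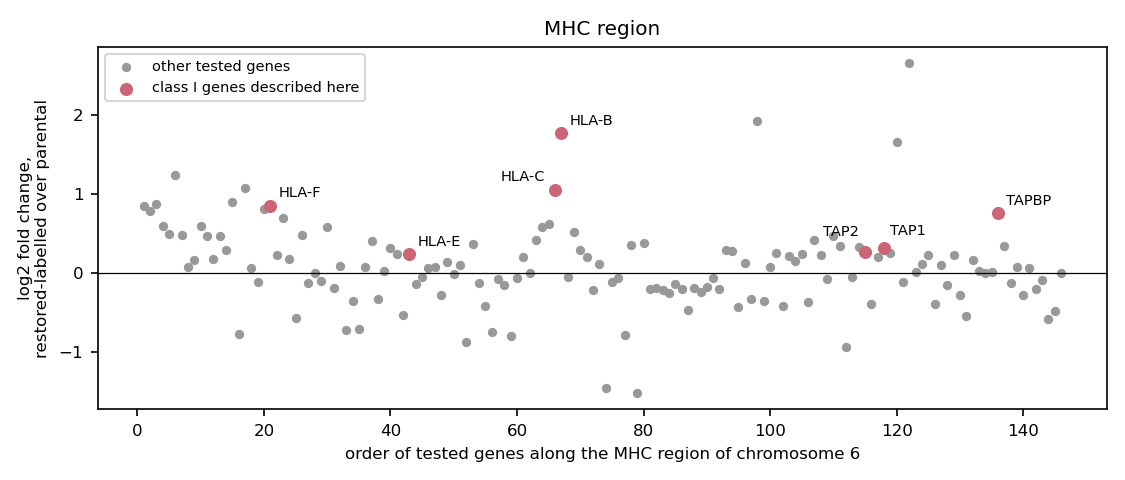
Log2 fold change, restored-labelled over parental, of all tested genes of the MHC region of chromosome 6 in their order along the chromosome, with the 7 class I genes described here in red. The grey neighbours scatter about 0 with a median of 0.03, and HLA-B at 1.77 and HLA-C at 1.05 stand beside neighbours with medians of -0.07 and -0.06.

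The rest of the pathway was compared through lists chosen by function. Their median log2 fold changes, against 0.00 over all genes tested, were 0.25 for peptide loading and trimming, 0.10 for the immunoproteasome, -0.04 for its constitutive counterparts and -0.12 for the class I promoter factors. They were 0.48 for interferon and NF-kappaB signalling, 0.20 for class I-like molecules and -0.10 for repressors of class I. Over all genes tested 10.4% were called higher and 8.77% lower, the shares to set beside the count of each list below. Among 6 genes of peptide loading and trimming, 3 rose and 0 fell. The 3 that rose lie on chromosome 5, where the 595 other tested genes had a median log2 fold change of 0.40, with 31.1% called higher and 2.69% lower, and the other 3 lie on chromosomes 19, 15 and 12. The 40 tested genes around CANX, around ERAP1 and around ERAP2 had medians of 0.33, 0.47 and 0.52. The part of this chromosome-wide difference in their result was not tested. CANX, encoding calnexin, which folds new heavy chains, stood at 719, 710, 910 and 739 CPM in the parental and 1331, 1459, 1536 and 2159 CPM in the restored-labelled libraries, a log2 fold change of 1.08 (SE 0.18, adjusted p = 0.00239). ERAP1 and ERAP2, the aminopeptidases that trim peptides to class I length, had log2 fold changes of 0.61 (SE 0.19, adjusted p = 0.0432) and 0.75 (SE 0.15, adjusted p = 0.00629). The values of ERAP2 were apart (18.4 to 24.2 against 31.5 to 41.0 CPM), those of ERAP1 overlapped, and an exon of ERAP1 overlaps one of CAST on the other strand. The other members of the loading complex, CALR and PDIA3, and the tapasin relative TAPBPL had log2 fold changes of -0.23, -0.12 and -0.21 and did not pass. CALR and PDIA3 were highest in parental replicate 1, at 4959 and 3220 CPM.

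None of 5 immunoproteasome and activator genes passed the test, and none of their 3 constitutive counterparts. Of all genes tested 19.2% were called, and whether such small lists differ from that share was not tested. The immunoproteasome replaces the catalytic subunits PSMB5, PSMB6 and PSMB7 by PSMB8, PSMB9 and PSMB10, which favours peptides that fit class I. PSMB8 stood at 13.0, 12.7, 14.6 and 11.8 CPM in the parental and 15.4, 7.76, 9.12 and 7.34 CPM in the restored-labelled libraries (log2 fold change -0.39, SE 0.24, adjusted p = 0.278). Restored-labelled replicate 1 was the highest of all 8 and the other 3 the lowest. PSMB9, which shares its promoter region with TAP1, had a log2 fold change of 0.20 (SE 0.26, adjusted p = 0.636), and PSME1, a subunit of the proteasome activator, 0.16 (SE 0.14, adjusted p = 0.428). Per kilobase PSMB8 was 0.0512 to 0.0748 of PSMB5 in the parental and 0.0351 to 0.0834 in the restored-labelled libraries, and PSMB9 was 0.0137 to 0.0175 and 0.0155 to 0.0230 of PSMB6. PSMB10 was 0.00624 to 0.00957 and 0.00821 to 0.0121 of PSMB7.

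Against 19.2% called over all genes, a difference not tested, no gene of the 8 class I promoter factors passed. These encode the RFX complex, the NF-Y trimer and the CREB family proteins that occupy the X and Y boxes and to which NLRC5 docks. The smallest p-values belonged to NFYC (log2 fold change -0.42, SE 0.14, adjusted p = 0.0524), ATF1 (-0.47, SE 0.18, adjusted p = 0.0924) and NFYA (0.50, SE 0.22, adjusted p = 0.14).

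Of 15 genes of interferon and NF-kappaB signalling to class I, 14 were tested, 5 rose and 1 fell. The shares over all genes were 10.4% higher and 8.77% lower. IFNGR1, the ligand-binding chain of the interferon gamma receptor, stood at 48.9, 63.2, 56.7 and 44.9 CPM in the parental and 98.7, 122, 90.2 and 105 CPM in the restored-labelled libraries, a log2 fold change of 0.96 (SE 0.14, adjusted p = 0.00149). TYK2, a kinase of the type I receptor, rose by a log2 fold change of 0.63 (SE 0.11, adjusted p = 0.00419), and IFNAR1, a chain of that receptor, by 0.69 (SE 0.15, adjusted p = 0.0107). The transcription factors IRF1, which also lies on chromosome 5, and STAT2 each rose by 0.51 (adjusted p = 0.0331 and 0.0384). IFNGR2, the signalling chain of the interferon gamma receptor, fell by 0.40 on the log2 scale (adjusted p = 0.0284). The log2 fold changes of 9 of the 14 tested genes were above 0. NFKB1 and RELA, the NF-kappaB genes of the list, had -0.29 and -0.33 and did not pass (adjusted p = 0.321 and 0.0892). The kinase JAK1 had -0.43 (adjusted p = 0.148).

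Among class I-like molecules and ligands of the natural killer receptor NKG2D, 8 of 12 were tested, 2 rose and 1 fell. The shares over all genes were 10.4% and 8.77%. HFE, an iron-regulating molecule that pairs with beta-2 microglobulin, stood at 36.6, 51.4, 47.7 and 44.2 CPM in the parental and 62.5, 88.4, 78.2 and 78.7 CPM in the restored-labelled libraries (log2 fold change 0.77, SE 0.15, adjusted p = 0.00539). MICA, a stress-induced ligand of NKG2D, rose by 0.52 (SE 0.14, adjusted p = 0.0219). CD1D, which presents lipids to natural killer T cells, fell from 1.16 to 2.58 CPM to between 0.0390 and 0.717 CPM (log2 fold change -2.67, SE 0.59, adjusted p = 0.0115). It passed the filter through the parental libraries, so its call is not independent of that selection. The other light-chain partners FCGRT and MR1 had log2 fold changes of 0.13 and -0.04 and did not pass.

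Of 6 genes that restrain class I, SUZ12, a subunit of the Polycomb complex that silences class I genes in some tumours, rose (log2 fold change 0.83, SE 0.22, adjusted p = 0.0242), while SUSD6 (0.34, adjusted p = 0.162), WWP2 (-0.21, adjusted p = 0.322) and the other 3 did not pass. Of 10 genes of the class II list, its regulator CIITA included, 3 were tested and 2 rose, against 10.4% over all genes. The count includes HLA-DPA1, which was tested only because of its level in the restored-labelled libraries. Its call and the count are therefore not independent of that selection. HLA-DMA, a chain of the class II peptide editor, stood at 16.8, 13.2, 8.28 and 7.23 CPM in the parental and 38.2, 39.4, 35.3 and 30.8 CPM in the restored-labelled libraries (log2 fold change 1.66, SE 0.25, adjusted p = 0.00142). An exon of HLA-DMA overlaps one of BRD2 on the other strand, whose level was 315 to 402 CPM and 319 to 353 CPM. Its partner HLA-DMB did not pass (0.25, SE 0.40, adjusted p = 0.694). HLA-DPA1 rose at a very low level, from at most 0.445 CPM to between 0.743 and 1.01 CPM (log2 fold change 2.65, SE 0.62, adjusted p = 0.0152), having passed the filter through the restored-labelled libraries.

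**Figure D5:**
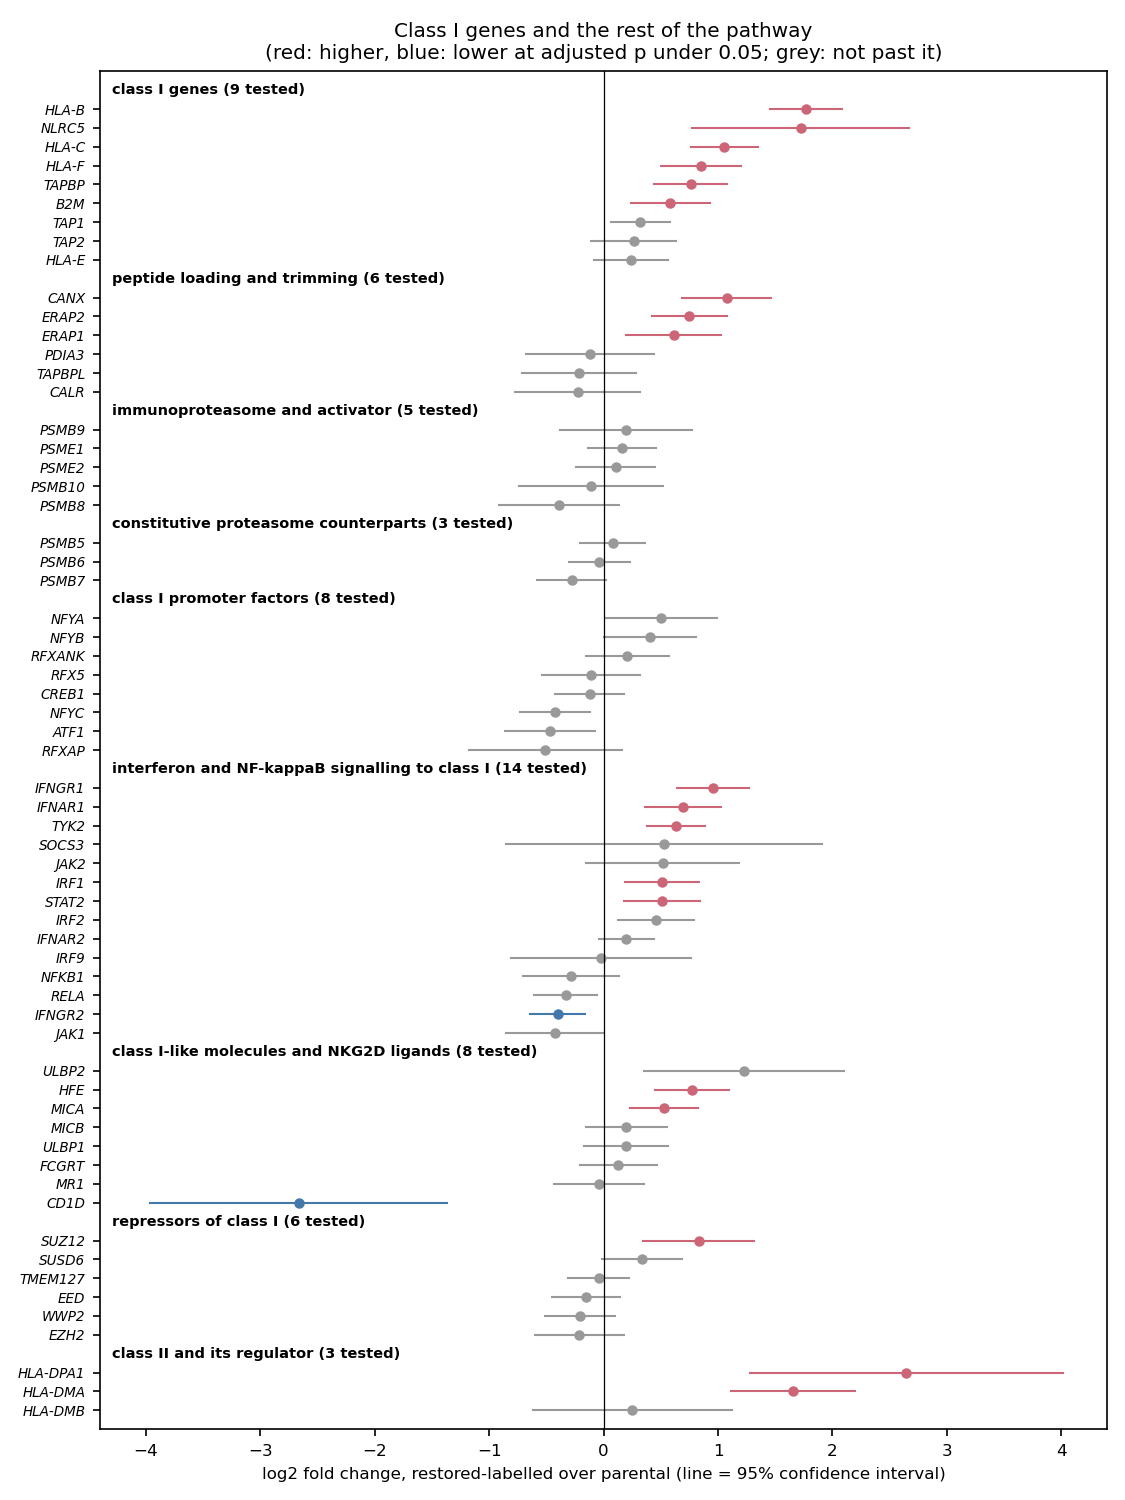
Log2 fold change with 95% confidence interval, restored-labelled over parental, of every tested gene of the class I group and of the 8 pathway lists, red where higher and blue where lower at an adjusted p under 0.05. All 9 class I points lie right of 0, and no immunoproteasome or promoter factor gene is coloured.

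The tested genes whose pattern over the 8 libraries lay closest to that of B2M, by the mean absolute difference of log2 CPM after subtraction of each gene's own mean, were UBTD2 (0.05), ZNF283 (0.06), TRNT1 (0.06), VTA1 (0.07) and TMEM19 (0.07). The median over all tested genes was 0.38. Within the class I group TAPBP (0.14) and TAP2 (0.16) lay nearest to B2M, and HLA-B (0.60) and NLRC5 (0.79) farthest.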

How the data were processed

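RNA from 8 libraries was measured, 4 parental and 4 restored-labelled, grouped by the sample titles. The deposited table holds raw counts per Ensembl gene, whole numbers without normalization. Per the submitters' processing notes, bcl2fastq, fastp 0.23.1, STAR 2.7.4 and GRCh38 were used; the annotation, counting rule, strand and read length are not given in the sources used here. Names and coordinates come from GENCODE release 29 (GRCh38), which held 57943 of the 58206 identifiers, and 0 columns belonged to no sample.

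The analysis ran in R 4.3.3, with edgeR 4.0.16 for the test: filterByExpr (minimum count 10, total 15), TMM scaling, glmQLFit and glmQLFTest without covariates, two-sided p-values adjusted by Benjamini-Hochberg over all 14289 genes, threshold 0.05. Standard errors were derived from the log2 fold change and the F statistic. CPM use the TMM-scaled totals, log2 CPM a prior count of 2, and levels per kilobase the longest principal transcript. Between 99.75% and 99.85% of counts were in tested genes, and 3 counts equal 0.108 to 0.267 CPM. The test was checked on simulated counts.

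The genes and lists were chosen with earlier results of these data known; 1 gene of the interferon list is not reported here. Named from each pathway list are the 3 genes with the smallest p-value; further named list genes, the marker genes, BRD2 and those of the closing observations were chosen after their values were seen. Alternatives were upper-quartile scaling, DESeq2 size factors, total counts, limma-voom (limma 3.58.1), a Wald test in DESeq2 1.42.0, no filter, a filter at 1 CPM on average, the replicate number as a block, thinning to the smallest library, a threshold of 0.01 and leaving out each library. Leaving out both replicates numbered 1 was added, the bounds of the MHC region were set and chromosome 5 was examined after seeing the data.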

Additional observations from a re-analysis of the deposited data

Results flagged for a closer look

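Among 22 sets of 4 libraries examined, 3 held a library far from the other 3, where chance flags about 1 in 20. HLA-B in restored-labelled replicate 1 was 69.5 CPM against 78.7 to 80.5 CPM in the others. HLA-F in parental replicate 1 was 26.1 CPM against 18.3 to 19.1 CPM. The ratio of B2M to the summed heavy chains, per kilobase, was 0.930 in parental replicate 1 against 1.74 to 1.84 in the other parental libraries.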

How the results depend on the processing

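HLA-B, HLA-C, HLA-F and TAPBP stayed past the threshold, and TAP2 short of it, in all 18 alternatives that refit the genes, and no fold change of the 9 genes changed direction. Of the 9 genes, 4 passed at a threshold of 0.01. The number of genes called over the whole table was 2738, 964 at a threshold of 0.01, 4623 without both replicates numbered 1, and 1394 (without restored-labelled replicate 4) to 3523 (without parental replicate 1) with 1 library left out. With 1 library left out the log2 fold change was 0.47 to 0.66 for B2M, 1.48 to 2.31 for NLRC5, 0.17 to 0.38 for HLA-E and 0.28 to 0.37 for TAP1; 4 to 8 of the 9 genes were then called. Without both replicates numbered 1, HLA-E (0.44) and TAP1 (0.38) passed the threshold. TAP1 also passed with total counts only (0.41) and in the DESeq2 Wald test (0.31). The median of the other genes of the MHC region was 0.03, 0.12 with total counts only, 0.10 without both replicates numbered 1 and 0.01 to 0.07 with 1 library left out. The cause of these changes was not tested. With the replicate block, 6 of the 9 genes and 2033 genes in all were called; same-numbered libraries correlated at -0.06 to 0.23 in their deviations from the group means, so they were taken to share only a number, and 1 of 4 correlated best with its own. Depth limits rows with few counts, NLRC5 and HLA-DPA1 among the tested ones.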

Other observations

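Low rows outside the tests also differed in level. The NKG2D ligand genes RAET1E and RAET1G had at most 2 and 3 counts in any parental library and means of 0.792 CPM ± 0.158 and 0.592 CPM ± 0.182 (SD, n = 4) under the other label. Against a floor of 3 counts per parental library these observed means are 3.33-fold and 2.49-fold higher, with no error attached to the ratios. RAET1E and RAET1G were named because the values of their groups did not overlap. Exons of both overlap RAET1E-AS1 on the other strand. They are 2 of the 4 genes of their list under the filter, and the values of the other 2 overlapped. Of the 7 class II list genes under the filter, 3 had higher values in every restored-labelled library than in any parental one and 4 overlapped. The share of such rows among all rows under the filter was not computed, so these counts are not read as a result about either list. Libraries held 11232951 to 15263761 counts in the parental and 12372436 to 26400782 in the restored-labelled group, and the part of depth was not tested. The 3 class II genes were HLA-DRB1 (at most 1 count in a parental library against 21, 3, 3 and 5), HLA-DPB1 (at most 1 against 5, 12, 10 and 8) and HLA-DQB1 (0 against 7, 2, 1 and 1, so that its order rests on single reads).

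The rows of the class I pseudogenes HLA-H, HLA-L and HLA-J and of HLA-G were at low levels and did not pass the test. HLA-H stood at 2.52 CPM ± 0.608 and 1.67 CPM ± 0.420 (SD, n = 4; log2 fold change -0.57, adjusted p = 0.207), HLA-L at 1.52 CPM ± 0.326 and 2.02 CPM ± 0.165 (0.41, adjusted p = 0.308), HLA-J at 0.573 CPM ± 0.284 and 0.862 CPM ± 0.309 (0.58, 95% confidence interval -0.44 to 1.61, adjusted p = 0.408) and HLA-G at 0.669 CPM ± 0.297 and 0.725 CPM ± 0.217 (0.18, adjusted p = 0.796). Whether they differed from HLA-B and HLA-C was not tested. HLA-V had 57 counts in restored-labelled replicate 1 and 1 to 6 in the 7 other libraries.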
